A study of Homo sapiens with 10 samples.

Results

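The 14-3-3 proteins are read here through 6 genes, YWHAB, YWHAE, YWHAG, YWHAH, YWHAQ and YWHAZ, which encode the beta, epsilon, gamma, eta, theta and zeta forms. They were chosen by name, as every row of the 10 deposited libraries whose Ensembl gene carries one of these symbols. All 6 were found, among 10626 genes listed in at least 1 library. The seventh human form, sigma, is encoded by SFN and is given beside them for comparison. The libraries are PacBio long reads of polyadenylated RNA in which C-to-U edits were counted along coding sequences. In HEK293T, an embryonic kidney line, 3 libraries came from cells expressing Ribo-STAMP, the deaminase APOBEC1 fused to the ribosomal protein RPS2, which edits mRNA on ribosomes. Another 3 came from HEK293T cells expressing APOBEC1 alone, the background editor; both HEK293T groups had doxycycline at 1 ug/mL for 72 h to switch on the construct. In MDA-MB-231, a line from a breast tumour without hormone receptors or HER2, all cells expressed Ribo-STAMP under 48 h of doxycycline at 1 ug/mL. Of these, 2 libraries came from cells given 100 uM CoCl2 for 48 h, a cobalt salt used to mimic low oxygen, and 2 from untreated cells. Library kits and induction times differed between the lines, per the labels' protocols, so values of the lines are only set side by side. No label says that replicates were separate cultures, so the spread that p-values measure is that between these libraries, and it may be technical.

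14-3-3 proteins form cup-shaped dimers that bind client proteins at phosphorylated serine or threonine. By holding a client in the cytosol, covering a surface or keeping it folded, they act on cell cycle entry, kinase signalling, apoptosis and metabolism. CDC25 phosphatases and the death protein BAD are among the best known clients. The forms share one fold and much of their binding surface, can mix in heterodimers except for sigma, which prefers itself, and are abundant in most tissues.

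Every value below derives from pairs of edited reads and covering reads at each listed coding position of an isoform. The edit count of a gene is the number of edited reads summed over its positions, so a read edited at several positions counts at each. Only positions with at least 1 edited read were listed. An isoform without any edit therefore has no coverage either, and an edit count of 0 may mean no edit or no reads. The Ribo-STAMP libraries of HEK293T held 157495 to 203042 reads on listed isoforms, the APOBEC1-only libraries 81592 to 110507, the CoCl2 libraries 1204710 and 1120240 and the untreated libraries 1137560 and 1135890. No position of any gene was listed in all 6 HEK293T libraries or in all 4 MDA-MB-231 libraries, and the step that left such positions out is not given in any source at hand. Of 6 MDA-MB-231 markers (CD44, CAV1, ANXA1, AXL, PLAUR and TGFBI), 6 were edited in every MDA-MB-231 library, and their only edit in HEK293T was 1 read of CAV1. Of 5 HEK293T markers, NEFM, LIN28B and SALL2 were listed only in HEK293T, CKB in both lines and NEFL in neither.

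The 6 genes lie on different chromosomes. In GRCh38 YWHAB is at chr20:44885676-44908532 on the plus strand, YWHAE at chr17:1344272-1400378 on the minus strand and YWHAG at chr7:76326794-76359031 on the minus strand. YWHAH is at chr22:31944461-31957603 on the plus strand and YWHAQ at chr2:9583972-9631014 on the minus strand. Their coding sequences are alike in length, 738 to 768 bases in the main isoforms, with 136 cytosines in YWHAZ and 205 in YWHAG at the extremes. In MDA-MB-231, where the deposited positions match GRCh38, 376 of the 979 coding cytosines of the 6 genes were edited in at least 1 library (38.4%).

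The stretches printed here hold the position with the highest edited share in each of 5 genes, among positions listed in 3 of the 4 MDA-MB-231 libraries, and for YWHAQ also the second highest. They are 21 bases of the GENCODE 29 transcripts (GRCh38), given 5′ to 3′ along the mRNA in DNA letters, with the edited cytosine in capitals. They are shown because 5 of the 6 have A or T just before the edited base, while the second YWHAQ position has G there.
YWHAB, chr20:44905038-44905058, plus strand: acacccaattCgtcttggtct
YWHAE, chr17:1361163-1361183, minus strand: cttccaccaaCgcatcctatt
YWHAG, chr7:76330158-76330178, minus strand: cctacaagaaCgttgtggggg
YWHAH, chr22:31956636-31956656, plus strand: cttagccaaaCaagccttcga
YWHAQ, chr2:9630228-9630248, minus strand: accgacacctCcgacaagaag
YWHAQ, chr2:9588229-9588249, minus strand: ccgcctggggCttgctcttaa

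These were low shares of the covering reads. At each position the covering reads are those of the gene in that library, not the depth at the position itself. They were the median depth of each listed isoform, summed over isoforms. The YWHAG position, coding base 153, was edited in 2 of 116 reads of CoCl2 replicate 1 (1.72%, exact Clopper-Pearson 95% interval 0.209 to 6.09%), against 3 of 152 (1.97%, 0.409 to 5.66%) and 2 of 138 (1.45%, 0.176 to 5.14%) in untreated replicates 1 and 2. The intervals hold counting error alone, as several reads may come from 1 molecule, and they take the gene's coverage as the number of reads. Each of these positions was listed in 3 of the 4 libraries, and the treated or untreated replicate that is not named beside a position did not list it, so a group given with 1 value rests on 1 library. At the YWHAB position, coding base 505, edits were found in 3 of 411 reads of CoCl2 replicate 2 (0.730%), against 7 of 759 (0.922%) and 7 of 535 (1.31%) reads of the untreated replicates. The YWHAE position, coding base 497, was edited in 6 of 558 reads of CoCl2 replicate 1 (1.08%), against 4 of 865 (0.462%) and 4 of 958 (0.418%) reads of the untreated replicates. The YWHAH position, coding base 595, lies where C-to-U makes a stop codon. It was edited in 2 of 606 reads of CoCl2 replicate 2 (0.330%), against 5 of 619 (0.808%) and 4 of 806 (0.496%) in the untreated replicates. A listed position holds at least 1 edited read, so the lowest share it can have falls as coverage rises. A single edited read made 1.06% of 94 reads in YWHAG and 0.0365% of 2742 reads in YWHAQ. YWHAQ, with the deepest coverage of the 6, had the lowest shares, which were thus not ranked at equal depth. Its most edited position, coding base 215, reached only 2 of 1500 reads in CoCl2 replicate 1 (0.133%), against 3 of 2742 (0.109%) and 3 of 2046 (0.147%) in untreated cells. The second, coding base 508, was edited in 2 of 1500 and 2 of 1464 reads of CoCl2 replicates 1 and 2 (0.133 and 0.137%), against 1 of 2046 (0.0489%) in untreated replicate 2. For YWHAZ, which lies on chromosome 8 and whose bases are not printed, the corresponding position was coding base 484, edited in 3 of 263 reads of CoCl2 replicate 2 (1.14%), against 2 of 709 (0.282%) and 5 of 422 (1.18%) in untreated cells. The intervals of treated and untreated libraries overlapped at each position given with values here.

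The first comparison asked how far tethering the deaminase to the ribosome raised edits on 14-3-3 mRNA over the free enzyme in HEK293T. YWHAB, YWHAE, YWHAG, YWHAQ and YWHAZ carried more edits in every Ribo-STAMP library than in any APOBEC1-only library, and YWHAH had few in either group. A gene was tested from 10 edited reads in 3 libraries, and these 5 members reached that only in the Ribo-STAMP libraries. The minimum thus fixed their direction, and their changes are given as a description with no p-value. Of the 654 genes tested 99.7% were called higher and 0.153% lower by limma, and nothing about the members is read from their own calls. How much of each editor the cells made is not part of these values, and it cannot be told apart from ribosome targeting. YWHAZ, the zeta form first known as an activator of tyrosine and tryptophan hydroxylase, carried 118, 54 and 72 edited reads in Ribo-STAMP replicates 1 to 3, against 0, 1 and 1 with APOBEC1 alone. Scaled to equal depth this was 76.1 ± 23.5 against 0.740 ± 0.650 (SD, n = 3 each), a log2 change of 5.51 (SE 0.62). The groups did not overlap, and Ribo-STAMP replicate 1 stood above the other two.

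YWHAE, the epsilon form, whose gene is lost in the large deletions of Miller-Dieker syndrome, carried 53, 64 and 88 edited reads with Ribo-STAMP, against 0, 0 and 5 with APOBEC1 alone. The log2 change was 5.08 (SE 0.66), and all 5 background edits lay in APOBEC1-only replicate 3. There the isoform carried 2.22 edits per 100 covering reads, against 42.4, 33.0 and 30.2 on the main isoform in the Ribo-STAMP libraries. YWHAQ, the theta form, described early in T cells, carried 52, 70 and 91 edited reads with Ribo-STAMP, against 2, 2 and 1 with APOBEC1 alone (log2 change 4.65, SE 0.60). YWHAQ was thus the only member edited in all 6 libraries.

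YWHAB, the beta form, carried 28, 14 and 16 edited reads with Ribo-STAMP and none in any APOBEC1-only library. Its scaled mean with Ribo-STAMP was 5.74 times a floor of 3 reads per library, which is 3.16 after scaling. YWHAG, the gamma form, in which dominant variants cause a developmental epilepsy, was alike. It carried 28, 15 and 15 edited reads with Ribo-STAMP and none with APOBEC1 alone, and its scaled mean was 5.76 times the floor. Coverage of both genes with APOBEC1 alone is not known. These are thus ratios of edit counts and give no lower bound for a change in editing per read. YWHAH, the eta form, known mainly from brain, had 2, 1 and 3 edited reads with Ribo-STAMP, against 1, 0 and 0 with APOBEC1 alone. That is at or below the floor in both groups, although 21, 39 and 69 reads covered it in the Ribo-STAMP libraries and 67 in APOBEC1-only replicate 1. SFN was not listed in any HEK293T library.

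**Figure D1:**
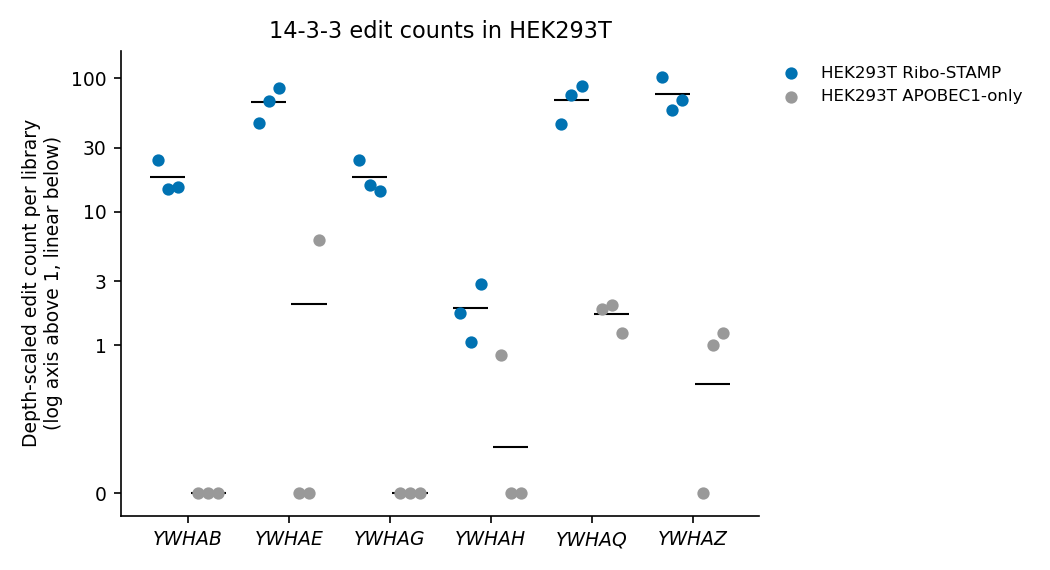
Depth-scaled edit count of each 14-3-3 gene (vertical axis, log above 1 and linear below) in the 3 Ribo-STAMP (blue) and 3 APOBEC1-only (grey) libraries of HEK293T; points are libraries in replicate order, lines are means. Ribo-STAMP means reach 76.1 for YWHAZ and 1.89 for YWHAH, where the scaled counts of 1.06 to 2.86 lie close to the 0.935 of APOBEC1-only replicate 1.

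These changes depend on how the libraries are scaled. The scaling above kept the global excess of edits in Ribo-STAMP libraries, and the median tested gene moved by 3.76 on the log2 scale. When trimmed-mean (TMM) scaling removed that excess, the median gene moved by 0.76, and 25 of 654 genes were called higher. The changes were then 2.60 for YWHAE, 1.16 for YWHAQ and 2.66 for YWHAZ, and those of YWHAB and YWHAG are not given here. The genes tested were the same, and the members had reached the minimum of edited reads only in the Ribo-STAMP libraries. Their changes under TMM are thus again a description with no p-value. Dividing edits by covering reads needs an isoform edited in every library, and among the members YWHAQ alone had one. YWHAQ-201 carried 19.7, 19.1 and 22.5 edits per 100 reads with Ribo-STAMP, against 0.505, 0.528 and 0.498 with APOBEC1 alone. The log2 ratio of edited to unedited reads, counted at every listed position, rose by 4.93 (SE 0.27, limma adjusted p = 2.71e-09). The median was 3.47 over the 392 genes tested, of which 95.7% were higher and 0.0% lower. With each library centred on its median gene the change of YWHAQ was 1.55 (limma adjusted p = 0.00165). Positions recurred between Ribo-STAMP libraries: of 269 edited positions of the 6 genes, 79 were listed in 2 and 56 in all 3 of the libraries (50.2% together). Over all genes 18.1% of 106961 positions were listed in 2 or more of these libraries, with no match for coverage. APOBEC1 alone edited 13 positions in the 6 genes, 7 of which Ribo-STAMP edited too.

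The members differed among themselves in editing per read. In HEK293T Ribo-STAMP libraries YWHAE had 45.8 ± 8.33 and YWHAB 41.0 ± 12.6 edits per 100 covering reads and coding kilobase (SD, n = 3). These levels did not differ beyond their spread. YWHAQ (28.7 ± 2.68) and YWHAZ (28.6 ± 6.80) came next, and the lowest YWHAB library, at 28.9, lay within their ranges. YWHAG followed with 17.2 ± 2.25, all 3 libraries below those of YWHAZ, and YWHAH was lowest with 7.39 ± 4.88, from 6 edited reads in all. Among 2145 genes with a level in all 7 Ribo-STAMP libraries, YWHAE stood at the 95.3 percentile and YWHAH at the 7.65 percentile.

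In MDA-MB-231 the order was another. YWHAG had 16.4 ± 3.00 edits per 100 reads and coding kilobase in CoCl2-treated cells and 12.8 ± 4.37 in untreated cells (SD, n = 2 each). YWHAZ had 14.9 ± 2.19 in treated and 16.8 ± 1.46 in untreated cells, and YWHAB 12.1 ± 1.47 in treated and 13.1 ± 0.401 in untreated cells. In treated cells YWHAG and YWHAZ overlapped and YWHAB lay just below both, and in untreated cells YWHAG overlapped with each of the other two. YWHAH had 9.14 ± 0.335 in treated and 9.77 ± 0.866 in untreated cells. YWHAE had 7.28 ± 1.09 in treated and 6.53 ± 0.774 in untreated cells. YWHAQ was lowest with 2.88 ± 0.114 in treated and 3.87 ± 0.393 in untreated cells, at the 1.26 and 2.98 percentiles of the 2145 genes. YWHAQ was also the best covered member in MDA-MB-231, with 1464 to 2742 reads per library. Besides kits and induction times, positions edited in all libraries of a line are missing, and the part of either in the lines' different levels for YWHAE and YWHAQ was not tested.

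**Figure D2:**
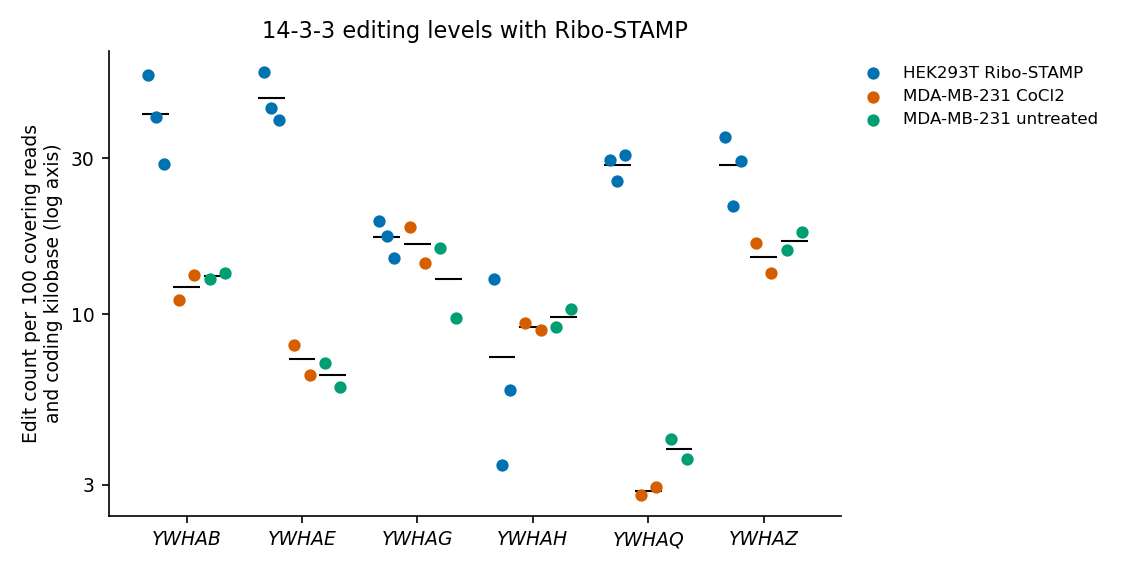
Edits per 100 covering reads and coding kilobase (log axis) for each 14-3-3 gene in HEK293T Ribo-STAMP, MDA-MB-231 CoCl2 and MDA-MB-231 untreated libraries; points are libraries, lines are means. YWHAE and YWHAB are highest in HEK293T, with means of 45.8 and 41.0, and YWHAQ is lowest in MDA-MB-231, with means of 2.88 and 3.87.

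By the likeness of these levels over the 7 Ribo-STAMP libraries, no member had another member among its 3 nearest genes. With 2145 genes compared, so few places say little about the family. YWHAB was nearest to U2AF2, a splicing factor, with a root mean square difference of 0.229 on the log2 scale, then to HDAC3 and ADI1. YWHAZ was nearest to PPT1 (0.248), KDELR2 and COPS3, and YWHAQ to HNRNPC (0.214), HSP90AB1 and XRCC6. YWHAE was nearest to GHITM (0.220), PSAP and ARPC2, YWHAG to ZFR (0.222), TMED2 and CPSF2, and YWHAH to AKAP8 (0.338), SRPRA and RCC1. The closest pair of members was YWHAB and YWHAZ (0.508).

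The second comparison asked what CoCl2 did to 14-3-3 mRNA and its editing in MDA-MB-231. Read coverage of isoforms listed in all 4 libraries stands in for mRNA abundance, and in bulk samples fewer cells and less RNA per cell cannot be told apart. Coverage of YWHAZ, YWHAE and YWHAQ fell with CoCl2, and that of SFN rose; YWHAB, YWHAG and YWHAH did not pass the test. Thus 3 of 6 members were lower and 0 higher, while 19.4% of the 5673 genes tested were lower and 24.1% higher. All 6 members had a negative change, with a median of −0.42 on the log2 scale, against −0.05 over all genes tested.

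YWHAZ had a scaled coverage of 269 and 286 reads in CoCl2 replicates 1 and 2, against 664 and 396 in untreated replicates 1 and 2. The groups did not overlap, and untreated replicate 1 stood apart from replicate 2. The log2 change was −0.88 (SE 0.23, limma adjusted p = 0.00601). YWHAE had 547 and 609 in treated, against 822 and 905 in untreated libraries, a log2 change of −0.58 (SE 0.19, limma adjusted p = 0.0187). YWHAQ had 1536 and 1592 in treated, against 2607 and 1922 in untreated libraries (log2 change −0.52, SE 0.19, limma adjusted p = 0.0312). Neither gene's groups overlapped.

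YWHAB had 538 and 447 reads with CoCl2, against 722 and 505 without, so the groups overlapped (log2 change −0.30, 95% interval −0.73 to 0.13, limma adjusted p = 0.238). YWHAG, the least covered member, had 119 and 102 with CoCl2, against 145 and 130 without (−0.31, −0.81 to 0.18, limma adjusted p = 0.278). YWHAH had 575 and 659 with CoCl2, against 588 and 761 without (−0.12, −0.53 to 0.29, limma adjusted p = 0.625). SFN, the sigma form, a p53 target that holds cells in G2 and is often silenced in breast cancer, had 461 and 377 with CoCl2, against 193 and 208 without. Its log2 change was 1.05 (SE 0.21, limma adjusted p = 0.00201), opposite in sign to the 6 members.

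**Figure D3:**
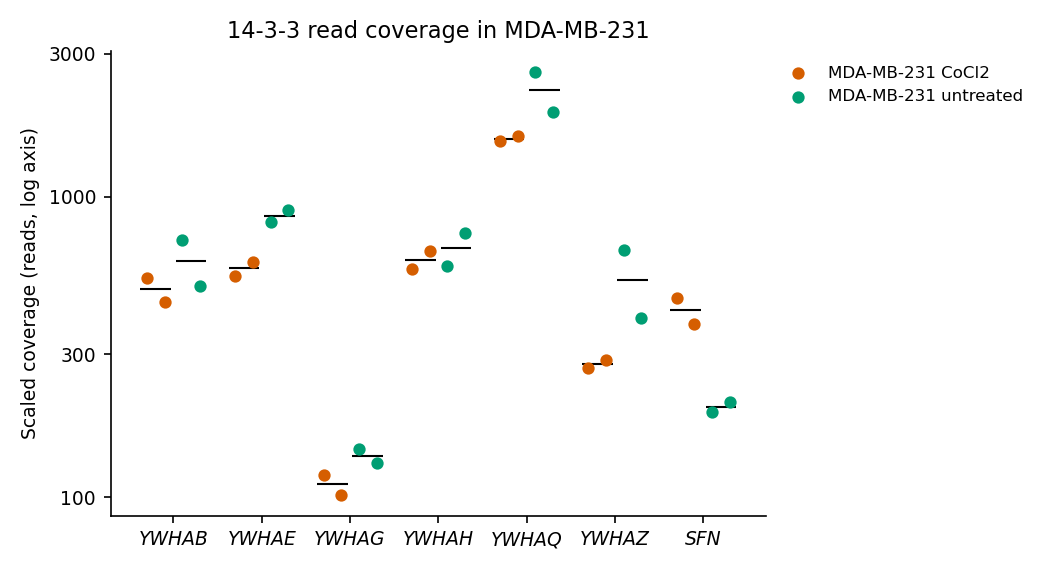
Scaled read coverage (log axis) of each 14-3-3 gene in the 2 CoCl2 (orange) and 2 untreated (green) libraries of MDA-MB-231; points are libraries, lines are means. Treated points lie below untreated points for YWHAE, YWHAG, YWHAQ and YWHAZ, overlap for YWHAB and YWHAH, and lie above for SFN, where the means are 419 and 200. YWHAG did not pass the test (limma adjusted p = 0.278), and the share of all genes with groups apart in this way is not given here.

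Coverage change went with transcript length across all genes. Weighted by coverage, the members ran from 1825 bases (YWHAH) to 4736 (YWHAZ), and none lay in the shortest of the groups below. With the genes split into 4 equal groups by length, the median log2 change was 0.82 in the shortest, up to 1735 bases, and −0.60 in the longest, from 3761 bases. SFN has 1320 bases and lies in the shortest group, while the YWHAZ isoforms, weighted by coverage, have 4736 and lie in the longest. YWHAE (2211 bases), YWHAQ (2208) and YWHAH (1825) lie in the second group, where the median change was 0.17. With the length trend removed from each library, YWHAE (−0.62, limma adjusted p = 0.0131), YWHAQ (−0.56, 0.0275) and YWHAH (−0.47, 0.0494) were lower. YWHAZ (−0.35, 0.159) and SFN (0.35, 0.168) were then not called, and YWHAB (0.13) and YWHAG (0.21) changed sign. The part of length in these results was not tested further. Without either CoCl2 replicate no member was called, and over all genes 0 and 2 were higher and 20 and 21 lower.

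**Figure D4:**
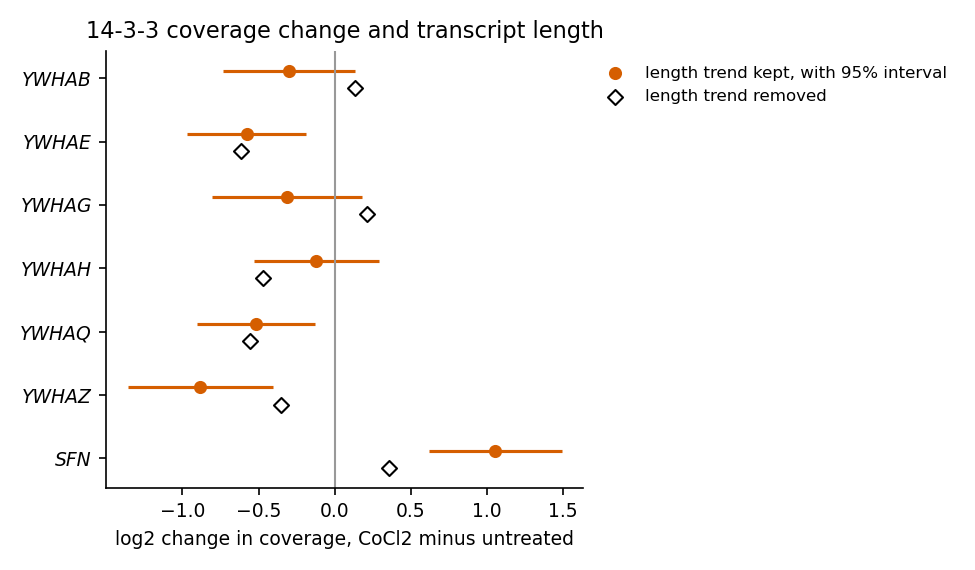
Log2 change in coverage, CoCl2 minus untreated, for each 14-3-3 gene of MDA-MB-231: filled points with 95% intervals keep the trend with transcript length, open diamonds have it removed. YWHAE and YWHAQ stay near −0.6, YWHAZ moves to −0.35 and SFN to 0.35.

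Edit counts took the same directions as coverage for most members, but no member passed the test. YWHAZ had 32 and 26 edited reads with CoCl2, against 83 and 56 without, or 30.5 ± 3.34 against 65.8 ± 17.7 after depth scaling (SD, n = 2 each; log2 change −1.06, limma adjusted p = 0.0559). YWHAQ had 31 and 32 with CoCl2, against 84 and 55 without (−0.94, limma adjusted p = 0.0765). In both genes treated and untreated libraries did not overlap. YWHAB (43 and 40 against 72 and 53), YWHAE (34 and 28 against 47 and 44) and YWHAH (39 and 40 against 42 and 62) had log2 changes of −0.41, −0.39 and −0.21. YWHAG had 16 and 10 with CoCl2, against 18 and 10 without (0.06). Among the 6 members 0 were called by limma, while of 4096 genes tested 12.0% were called higher and 2.91% lower. At an unadjusted p under 0.05 there were 0 higher and 2 lower members, against 1054 higher and 480 lower of the 4096 genes. With TMM scaling the called genes were 211 higher and 197 lower rather than 493 and 119, and YWHAZ was called (−1.26, limma adjusted p = 0.0467). SFN edits rose, with 78 and 53 edited reads in treated, against 13 and 34 in untreated cells (log2 change 1.71, limma adjusted p = 0.0339).

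Edits per covering read, which set the editing against the amount of mRNA, gave no call. Over all 5673 genes tested limma called 0.0% in either direction, with an unadjusted p under 0.05 for 420 higher and 65 lower genes. YWHAQ had 2.07 and 2.19 edits per 100 reads with CoCl2, against 3.06 and 2.65 without (log2 change of the edited to unedited ratio −0.41, 95% interval −0.80 to −0.03, limma adjusted p = 0.569). YWHAZ had 12.2 and 9.89 with CoCl2, against 11.6 and 13.1 without, and the groups overlapped (−0.17, −0.75 to 0.41). The other changes were 0.39 for YWHAG, 0.16 for YWHAE, −0.09 for YWHAH and −0.11 for YWHAB, against a median of 0.20 over all genes. SFN had 17.3 and 15.3 with CoCl2, against 6.40 and 15.5 without, so 1 untreated library set the difference (0.68, limma adjusted p = 0.63).

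Long reads also assign edits to isoforms, which in YWHAB, YWHAQ and YWHAZ share one coding sequence and differ in the untranslated parts. In MDA-MB-231 YWHAZ was carried mainly by YWHAZ-206, of 5248 bases with a 3′ untranslated region of 4168, with 212 and 204 reads in treated, against 534 and 323 in untreated libraries. YWHAZ-211, of 3007 bases, had 42 and 46 reads in treated, against 130 and 82 in untreated libraries. Its editing was 9.52 and 8.70 per 100 reads with CoCl2, against 14.6 and 18.3 without, and the groups did not overlap (log2 change −0.72, limma adjusted p = 0.623). On YWHAZ-206 it was 12.7 and 10.3 with CoCl2, against 11.4 and 12.1 without (−0.02). The isoform test called 0.0% of 6692 isoforms in either direction, with an unadjusted p under 0.05 for 465 higher and 86 lower. In HEK293T the main isoform was instead YWHAZ-207, of 3066 bases, with 403, 308 and 287 reads in Ribo-STAMP libraries. YWHAZ-211 had 29, 19 and 32 reads there, while YWHAZ-206 had 7 and 6 reads in replicates 1 and 2. YWHAZ-207 was listed in MDA-MB-231 with 2 and 3 reads in the untreated libraries only. The HEK293T coordinates are not those of GRCh38, and a difference in annotation cannot be told apart from one in isoform use. YWHAB-201 had 427 and 345 reads in treated, against 631 and 447 in untreated libraries, with an editing change of −0.12. YWHAB-202 had 98 and 66 reads in treated, against 128 and 88 in untreated libraries, with an editing change of −0.07.

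Clients of 14-3-3 proteins were followed in a list of 55 genes, of which 23 could be tested for coverage in MDA-MB-231 and none in HEK293T. With CoCl2, 2 of the 23 were higher and 6 lower, with a median log2 change of −0.33, against 24.1% higher, 19.4% lower and a median of −0.05 over all genes tested. BAD, the death protein that 14-3-3 holds in the cytosol when phosphorylated, was higher (1.36, limma adjusted p = 0.00152), as was BAX, another death protein (1.20, 0.00194). The lower ones included the lipid kinase PI4KB (−1.68, limma adjusted p = 0.00208), the deacetylase HDAC7 (−1.43, 0.0293), the kinase MARK3 (−1.15, 0.0386) and the phosphatase CDC25B (−0.90, 0.00483). With the length trend removed 1 client was lower, PI4KB (−1.15, limma adjusted p = 0.0261), and 2 others were higher, AKT1S1 (0.80, 0.0103) and ZFP36L2 (0.91, 0.0304). BAD (0.50, limma adjusted p = 0.0686) and BAX (0.37, limma adjusted p = 0.18) were then not called. Without CoCl2 replicate 1 no client was called, and without CoCl2 replicate 2 there were 0 higher and 1 lower. For edit counts 15 clients were tested, and limma called 1 higher and 0 lower, against 12.0% higher and 2.91% lower of 4096 genes. The client called was BAD, with 35 and 32 edited reads in treated, against 8 and 9 in untreated cells. BAD reached the minimum of 10 reads only with CoCl2, which fixed its direction, so no p-value is given. For edits per read limma called 0 of 23 clients and 0.0% of 5673 genes. At an unadjusted p under 0.05 there were 2 higher and 0 lower clients, against 420 higher and 65 lower of the 5673 genes.

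The base before the edited cytosine differed widely between members in MDA-MB-231. APOBEC1 is known to favour cytosines after A or U. Over all genes 76.7% of 342078 edited positions followed A or U, against 43.4% of all coding cytosines. In the 6 members the share was 51.1% of 376 positions, against 47.3% of their coding cytosines. It was 89.7% in YWHAG, 75.8% in YWHAZ, 56.9% in YWHAB, 55.6% in YWHAH, 36.0% in YWHAE and 15.4% in YWHAQ. Thus in YWHAQ 66 of the 96 cytosines after G or C were listed as edited (68.8%), but only 12 of the 76 after A or U (15.8%). In YWHAG the shares were 3 of 119 (2.52%) and 26 of 86 (30.2%). Mean coverage followed the reverse order, with 1938 reads for YWHAQ, 735 for YWHAE, 648 for YWHAH, 558 for YWHAB, 414 for YWHAZ and 125 for YWHAG. Among 4585 genes with at least 20 positions, edited positions exceeded all coding cytosines in A or U before by a median of 43.2 percentage points in the least covered of 4 equal groups and 24.8 in the most covered. In the 46 genes with the highest coverage the median was −25.3. YWHAQ, at the 98.9 percentile of coverage and just outside those genes, had −28.8.

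How often a position recurred went with the same property. Of the members' positions, 187 were listed in 1 MDA-MB-231 library, 97 in 2, 92 in 3 and 0 in 4. Those after A or U made up 35.3% of the first, 53.6% of the second and 80.4% of the third. Over all genes these shares were 71.6, 86.4 and 92.0%. The part of the missing positions in the low editing of YWHAQ was not tested. In YWHAZ, 29 and 23 of the 32 and 26 edits in treated cells followed A or U, against 80 and 45 of 83 and 56 in untreated cells. In YWHAQ these were 11 and 7 of 31 and 32 edits in treated cells, against 11 and 17 of 84 and 55 in untreated cells, which leaves 20 and 25 after G or C in treated cells, against 73 and 38 in untreated cells.

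**Figure D5:**
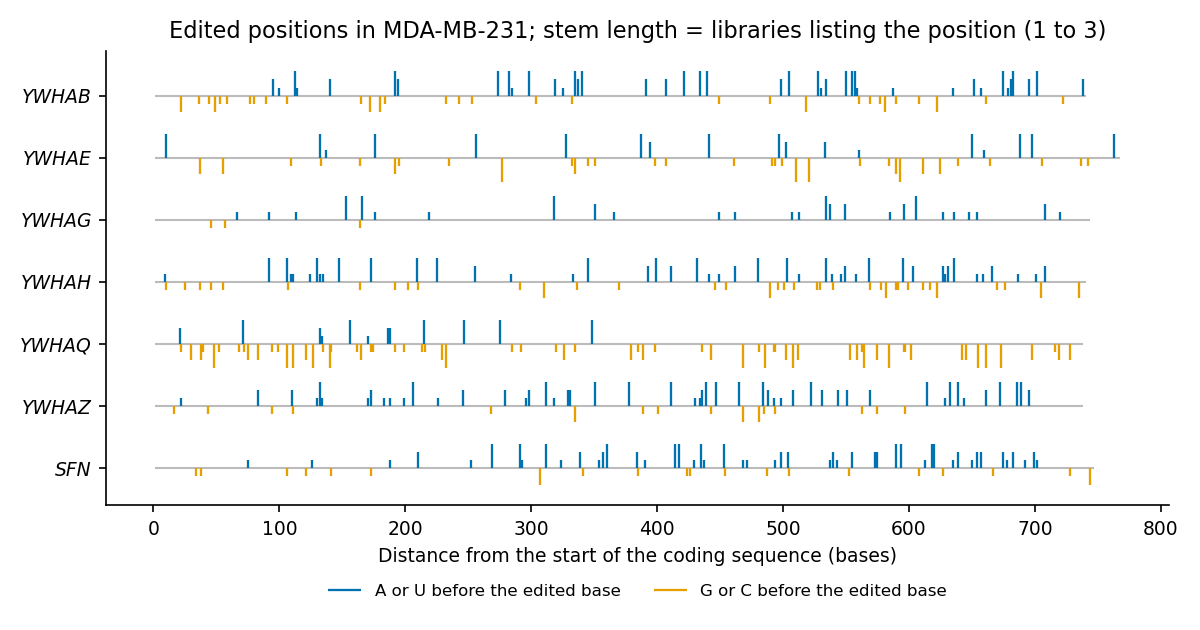
Edited positions of the 14-3-3 genes in MDA-MB-231 along the coding sequence (horizontal axis, bases from its start); stems point up for A or U and down for G or C before the edited base, and their length is the number of libraries listing the position, 1 to 3. YWHAG has 26 of 29 stems pointing up and YWHAQ 66 of 78 pointing down.

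Edits were spread along the coding sequence, with a median place at 55.6% of its length over the 376 positions, from 35.4% in YWHAQ to 64.8% in YWHAH. By codon, 166 positions were synonymous, 171 changed the amino acid and 39 made a stop codon (10.4%, against 8.58% of all coding cytosines). The stop-making positions ranged in number from 1 in YWHAG to 10 in YWHAZ. Most entries rested on 1 read: 75.5 and 78.7% in CoCl2, against 65.3 and 69.5% in untreated libraries.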

How the data were processed

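Edits were read in 10 long-read libraries. The authors deposited 1 text file per library without a header, in which each cell pairs 2 whole numbers at a coding position of an isoform. These other values were taken as edited reads and covering reads because the first never exceeded the second. Per the submitters' processing notes the builds were hg19 and hg38. Against GENCODE 29 on GRCh38, 99.8 to 99.9% of MDA-MB-231 entries fell within the coding sequence of the isoform named, and 2.38 to 4.77% of HEK293T entries did, so coordinates and sequence are given for MDA-MB-231 only. Aligner, edit caller and filters: not given in the sources used here.

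Relative depth was a median coverage ratio over the isoforms common to a line's libraries, 405 for HEK293T and 7310 for MDA-MB-231. Edit counts were divided by it, and a gene was tested if at least 10 edited reads were found in a number of libraries equal to the smaller group. Coverage was summed over isoforms listed in every library, scaled by TMM (trims of 30 and 5%), with a mean of at least 10. Editing per read was the log2 ratio of edited to unedited reads, with 0.5 added to each. Unedited reads were counted at every position of an isoform edited in any library of the line. They were coverage times the number of these positions, less the edited reads. All genes were tested two-sided in limma 3.58.1 (R 4.3.3), with a variance trend on the mean, on log2(value + 1) or that ratio, with Benjamini-Hochberg adjustment at 0.05; adding 1 understates changes of low genes. The scripts were tested on simulated data. Codons were aligned with MAFFT 7.526.

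The members and lists were chosen with earlier results of these data known. Named were all members and SFN, up to 5 called clients per direction (1 is not reported here), the 3 nearest genes and, per member, up to 2 positions with the highest share, listed in at least 3 MDA-MB-231 libraries at a coverage of at least 20. The base before edits and the alignment were added after the data were seen. Alternatives were scaling, added constants, filters, a length trend, other position sets, a replicate block and leaving out each library. Same-numbered libraries did not deviate together in every pair.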

Additional observations from a re-analysis of the deposited data

How the results depend on the processing

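Depth sets the limits: most entries rest on 1 edited read, and YWHAH had 6 in HEK293T with Ribo-STAMP. Of the members' counts of calls, 117 stayed within 1.5 times and 7 did not. A count of 0 that stayed 0 is among the 117, so this tally says little about the counts above 0. For HEK293T edit counts, where the minimum of 10 edited reads fixed the members' direction, the 5 members called higher became 2 with TMM scaling and 3 with positions of at least 2 edited reads. Higher genes overall were 652 at first, 25 with TMM, 2263 with no filter, 174 with 2 edited reads and 1059 to 1064 without an APOBEC1-only library. For MDA-MB-231 coverage the 3 lower members ranged from 0 to 4 when a library was left out. A library left alone in its group was assumed to vary like the other group. Higher and lower genes overall numbered 1368 and 1103, then 503 and 394 with the length trend removed, and 1915 were lower without untreated replicate 2. For MDA-MB-231 edit counts the 0 lower members became 1 with TMM, and 0 to 2 when a library was left out (2 without untreated replicate 2, YWHAQ and YWHAZ). Higher and lower genes overall were 493 and 119, then 0 and 0 with no filter, 124 and 79 with positions covered by 20 reads, 21 and 9 with 2 edited reads, and 2 to 1066 and 3 to 582 when a library was left out. For editing per read in HEK293T 375 higher genes became 73, with 53 lower, after centring, and 603 without APOBEC1-only replicate 3; YWHAQ was called in each.

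The replicate numbers did not pair the libraries (correlations of same-numbered deviations 0.0872 to 0.332 for HEK293T edit counts and 0.0227 for MDA-MB-231), and not every library correlated best with its own number. With the replicate number as a block, 1 member was lower in MDA-MB-231 edit counts (YWHAZ, −1.06, limma adjusted p = 0.035), with 783 higher and 306 lower genes. YWHAQ coverage was then not called (adjusted p = 0.0682), and 29 isoforms were higher and 12 lower in editing per read.

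Signs changed as follows, and the cause was not tested. In coverage, YWHAB was 0.13 and YWHAG 0.21 with the length trend removed, and YWHAH ranged from −0.33 to 0.053 when a library was left out. In edit counts, YWHAG was −0.12 with TMM and ranged from −0.33 to 0.44, and YWHAH from −0.50 to 0.065, when a library was left out. In editing per read, YWHAE was −0.033 after centring and −0.0020 with 2 edited reads (YWHAE-201 as an isoform −0.024 and −0.0020), and YWHAB ranged from −0.21 to 0.0044. Isoform YWHAB-201 ranged from −0.27 to 0.035, YWHAZ-206 from −0.17 to 0.13 and YWHAB-202 from −0.19 to 0.051, the last being 0.16 with 2 edited reads.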

Other observations

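The 6 coding sequences can be aligned codon by codon, with 61.6% (YWHAE and YWHAG) to 78.9% (YWHAG and YWHAH) of bases identical between pairs, which allows editing at matching cytosines to be compared in MDA-MB-231. YWHAB and YWHAZ have 102 cytosines in common, of which 48 were edited in YWHAB, 52 in YWHAZ and 23 in both. Thus 47.9% of the sites edited in YWHAB were also edited in YWHAZ, where 51.0% of all common sites were, and 44.2% of those edited in YWHAZ were also edited in YWHAB, where 47.1% were. YWHAG and YWHAQ have 113 in common, of which 20 were edited in YWHAG, 50 in YWHAQ and 1 in both, which is 5.0% of the YWHAG and 2.0% of the YWHAQ sites, where 44.2% of all common sites were edited in YWHAQ and 17.7% in YWHAG. YWHAH and SFN had 29 of 121 common cytosines edited in both, 46.8% of the sites edited in YWHAH and 72.5% of those edited in SFN, where 33.1% of all common sites were edited in SFN and 51.2% in YWHAH. These pairs were chosen after their values were seen, and no test was made.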
